A study of Mus musculus with 7 samples.

Results

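Notch, Hedgehog, BMP and TGF-beta are the signalling pathways through which skin cells exchange short-range signals, and their genes were followed here in the epidermis of mice that lost the lipid transporter gene Abca12 as adults. The genes were chosen by symbol: every row of the deposited table of differential expression whose name belongs to the Notch, Jag, Dll, Hes, Hey or Maml families (Notch), to Ptch, Gli, Smo or Hhip (Hedgehog), to Bmp, Grem or Id (BMP), to Tgfb, Inhb, Fst, Acvr, Ltbp or Gdf (TGF-beta and activin), or to Smad. This gave 30 of the 7091 genes in the table: 4 of Notch, 9 of BMP, 13 of TGF-beta and activin and 4 of Smad. Of the Hedgehog families the count was 0, so the core genes of that pathway are not analysed here. In all, 103 symbols of the mouse annotation fit the same name patterns, and those without a row are not analysed here.

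RNA was sequenced in bulk from epidermis separated from skin whose hair cycle was in telogen, its rest phase. The 4 KA mice had the genotype K14-CreERT;ABCA12-cKO, a conditional Abca12 deletion by a tamoxifen-activated Cre recombinase that the keratin 14 promoter drives in basal keratinocytes. The 3 control mice were ABCA12-c/c, with the conditional allele and no CreERT. All 7 mice received tamoxifen at the age of 8 weeks, 1 mg per 40 g of body weight on each of 3 days, and skin was taken 2 weeks later, so the comparison holds the deletion together with an active recombinase. KA 1 and KA 2 were males, KA 3 and KA 4 females, control 1 and control 3 females and control 2 a male.

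In Notch signalling, Delta-like and Jagged ligands on one cell bind Notch receptors on its neighbour, proteases then cut the receptor and free its active part, and Hes and Hey repressors are induced; in the epidermis this drives basal cells towards differentiation. BMPs and TGF-betas are secreted ligands of paired type I and type II receptor kinases. BMP receptors phosphorylate Smad1, Smad5 and Smad9 and induce Id genes, while TGF-beta and activin receptors phosphorylate Smad2 and Smad3. BMP signals help to hold hair follicle stem cells at rest in telogen, and TGF-beta restrains keratinocyte growth. TGF-beta leaves the cell in a latent form, tied to latent TGF-beta binding proteins (Ltbp) in the matrix, and must be released before it can act. Hedgehog ligands act through Ptch and Smo on Gli transcription factors and drive follicle growth.

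The table bounds what can be read from these genes. It lists only genes whose adjusted p-value, by the authors, was below 0.05: 36.5% of 19407 genes (19.2% higher in KA, 17.3% lower). Each of the 30 genes thus differed between the groups by the way the table was made. All 29 genes with enough reads for a refit passed it as well (edgeR quasi-likelihood, adjusted p below 0.05), where 100% of the 6749 tested genes in the table did, to 3 digits (6746 genes). Nothing about the pathways can be read from that share. Direction was not fixed by the selection, while size was bounded by it, since small differences are not listed: 24 of the 29 genes were lower in KA and 5 higher, against 47.3% lower and 52.7% higher over all tested genes. The median log2 fold change of the 29 genes was -0.84, and that of all tested genes was 0.36. Gdf5 had too few reads to be tested. All values below are normalised reads, counts divided by the size factor that the authors gave each library, and the fold changes are on that scale.

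**Figure D1:**
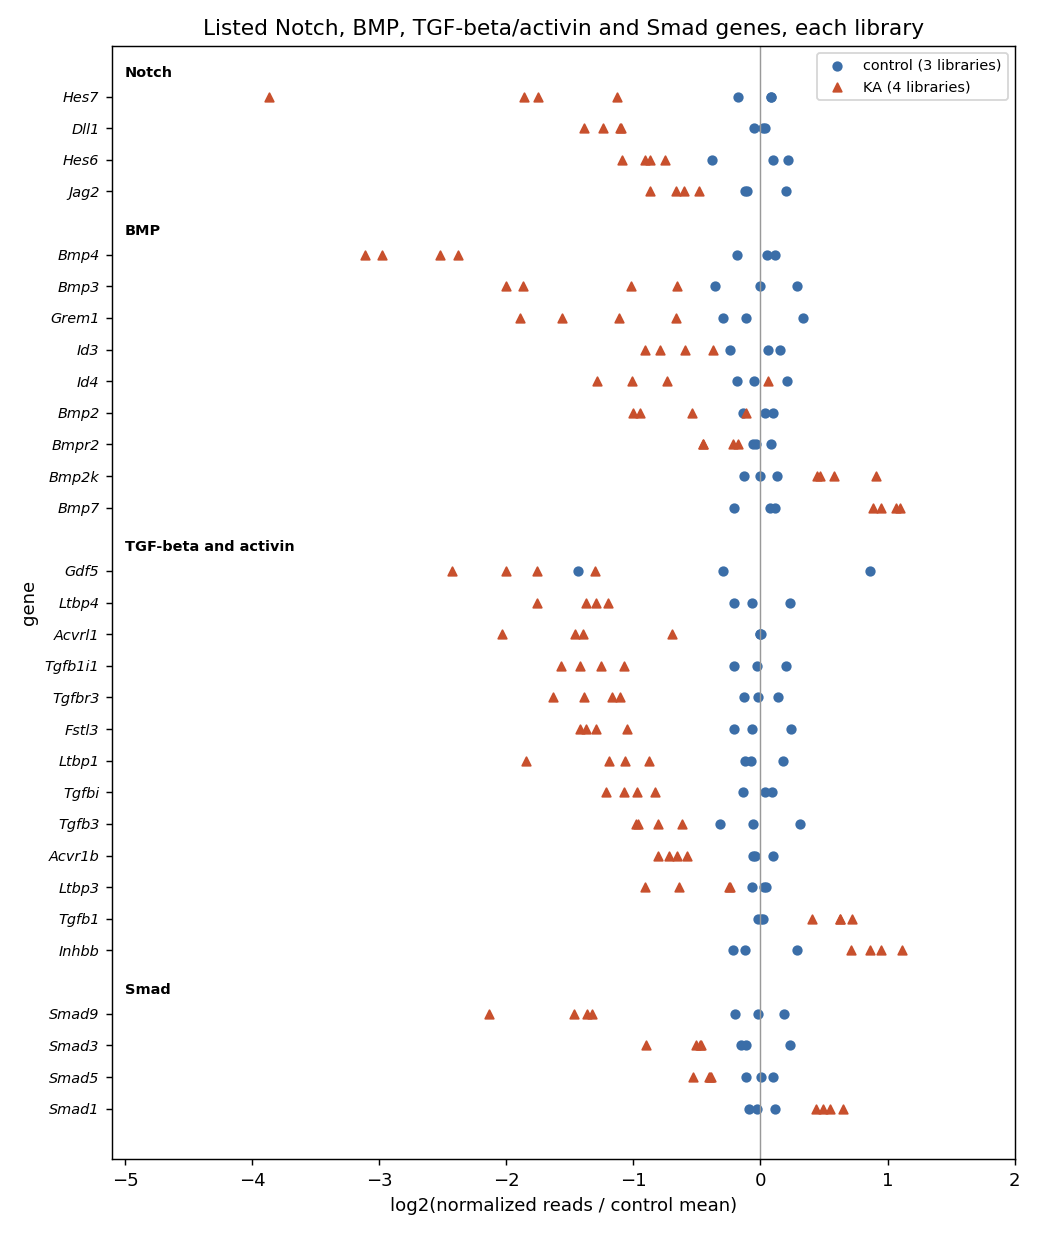
Each row is a gene of the 30, grouped by pathway, and the x axis is log2 of normalised reads over the mean of the 3 controls (circles, 3 control libraries; triangles, 4 KA libraries). Most triangles lie left of the circles. Those of Bmp7, Bmp2k, Tgfb1, Inhbb and Smad1 lie to the right, and those of Id4, Bmp2 and Gdf5 overlap the controls.

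**Figure D2:**
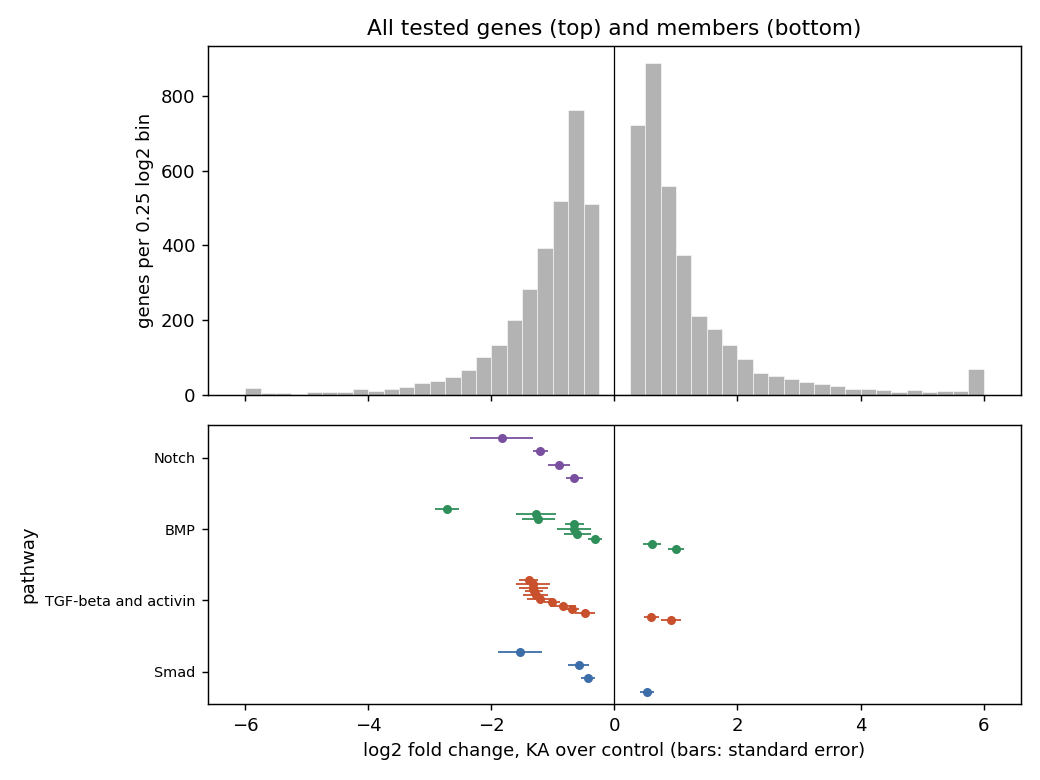
The upper panel counts all 6749 tested genes by log2 fold change, KA over control, with values beyond 6 in size placed in the end bins. The gap around 0 shows that the table holds called genes alone. The lower panel gives the 29 tested pathway genes with their standard errors, 24 of them below 0.

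The libraries held 9590718 to 12761458 reads in listed genes, and size factors ran from 0.888 to 1.247. These totals cover part of each library and are not its depth. Keratinocyte genes were abundant: Krt5, of basal keratinocytes, had 220535 to 241216 normalised reads in controls and 291476 to 354814 in KA. Of 6 basal markers 4 had a row: Krt14 was also higher (log2 fold change 1.58), and Itgb4 and Col17a1 were lower (-0.49 and -1.05). The summed level of 4 of 6 markers of the spinous and granular layers went from between 122645 and 153544 in controls to between 261279 and 419212 in KA. Of these Krt1, Ivl and Flg were higher and Lor was lower (log2 fold change -1.85). Of 10 dermal fibroblast markers 0 had a row and are not analysed here. In bulk RNA, fewer cells of a type and less RNA per cell cannot be told apart. The mixture of cells or their state did move: the summed level of 4 of 8 hair follicle bulge markers went from between 155339 and 203920 in controls to between 31161 and 86739 in KA. That sum is almost all Krt15: the other 3 summed to between 5343 and 7509 in controls and between 13071 and 23774 in KA, with Postn and Sox9 higher and Lgr5 lower. The summed level of 5 of 7 upper follicle markers went from between 69809 and 78658 to between 155534 and 243311. That sum is mostly Krt79 and Krt17. Of the 5 markers 4 were higher, and Lgr6 was lower (log2 fold change -0.41, SE 0.13). The summed level of all 5 Langerhans cell markers went from between 19120 and 26373 to between 47238 and 71680. In none of the bulge, upper follicle and Langerhans cell lists was a listed marker at 0 in any library. All 6 listed sebaceous gland markers were higher. Of 8 hair shaft markers 3 had a row, and the 2 tested were lower. The third, Krt71, was not tested for few reads and had a higher mean in KA. Its counts were 1, 7 and 7 in controls and 12, 7, 49 and 6 in KA. Of 4 T cell markers 3 were lower, among them Trdc, of gamma-delta T cells. Of 4 neutrophil and myeloid markers 3 were higher, among them Cxcr2 with 0, 1.03 and 4.01 normalised reads in controls and 386, 220, 220.4 and 289 in KA. The part of these shifts in the results below was not tested.

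The Notch ligand genes were lower in KA. Dll1, whose product is a Delta-like ligand of basal keratinocytes, had 2062, 1942 and 2040.2 normalised reads in the 3 control libraries and 771, 854, 936 and 942 in the 4 KA libraries, each in order of their numbers. The groups stood far apart and each was narrow. The fall was 1.20 on the log2 scale (log2 fold change -1.20, SE 0.12; edgeR quasi-likelihood adjusted p = 2.24e-05). Jag2, a Jagged ligand, had 12891, 10329 and 10414 in controls and 6131, 7393, 7056 and 8003 in KA, again without overlap (log2 fold change -0.65, SE 0.14; edgeR adjusted p = 0.00164). Dll1 (ENSMUSG00000014773) lies on chromosome 17 from 15367354 to 15376872 and Jag2 (ENSMUSG00000002799) on chromosome 12 from 112907819 to 112929776, both on the minus strand of mm10.

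Both Hes genes in the table were lower too. Hes6, a member of the Hes family that can counteract the repressor Hes1, had 361, 504 and 548 normalised reads in controls and 222, 251, 280 and 257 in KA (log2 fold change -0.90, SE 0.17; edgeR adjusted p = 0.000974). Hes7, the segmentation clock repressor, rested on few reads: 17, 13 and 20 counts in controls and 7, 4, 4 and 1 in KA (log2 fold change -1.83, SE 0.51). With the 4 animals numbered 4853 to 4857 alone its adjusted p was 0.066. In Dll1, 20.5% of exonic bases are shared with A930024N18Rik, a long noncoding gene on the other strand, which fell as well from between 52.6 and 67.2 normalised reads to between 17.8 and 24.9. Whether reads were assigned by strand is not given in the sources used here, and 12.9% of the exonic bases of Hes7 also lie in an opposite gene.

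Of 35 other Notch pathway genes the table held 17, with 8 of them higher and 9 lower in KA (median log2 fold change -0.35). The lower ones included Aph1c, of the gamma-secretase complex that cuts Notch, with 167, 167 and 174 normalised reads in controls and 19.8, 43.9, 56.4 and 62.3 in KA (log2 fold change -1.89, SE 0.32; edgeR adjusted p = 0.000474). Mib2, a ubiquitin ligase that activates Notch ligands, went from 1701, 1620 and 1641 to 808, 962, 1071 and 818 (log2 fold change -0.85, SE 0.13; edgeR adjusted p = 0.000257). Neurl3, a Neuralized-type ubiquitin ligase, had a log2 fold change of -0.84 (SE 0.17; edgeR adjusted p = 0.00121), and Dlk2, a Delta-like protein without the usual receptor-binding domain, one of -0.53 (SE 0.13; edgeR adjusted p = 0.00295). The glycosyltransferases that modify Notch receptors differed in direction: Lfng had 1420, 1246 and 1468 normalised reads in controls and 827, 970.1, 616 and 866 in KA (log2 fold change -0.75), while Rfng had 745, 689.7 and 652.0 in controls and 1287, 1080.5, 907 and 1154.5 in KA (log2 fold change 0.67). The count of 8 higher moved with scaling and with the libraries used, from 5 to 8 with 1 library left out. It was 5 with TMM factors, 4 with RLE factors and 5 without control 3, because Mfng, Dtx2 and Dtx4 no longer passed, with Neurl1b in addition under RLE.

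The BMP ligand genes differed in direction. Bmp4 showed the largest difference in size among the 29 tested genes: 807, 656 and 773 normalised reads in controls against 86.1, 94.6, 130 and 143 in KA. Every KA library was far below every control, and the mean was 6.57-fold lower (log2 fold change -2.72, SE 0.19; edgeR adjusted p = 4.86e-06). Rspo3, the 1 of 8 dermal papilla markers with a row, had 262, 209 and 188 normalised reads in controls and 0, 4.51, 1.04 and 6.23 in KA, and its part in the fall of Bmp4 was not tested. Bmp7 ran the other way, with 1161, 953 and 1196 in controls and 2308, 2132, 2032 and 2365 in KA, a 2.00-fold higher mean (log2 fold change 1.00, SE 0.13; edgeR adjusted p = 8.83e-05). Per kilobase of gene, Bmp7 stood at 0.805, 0.813 and 0.865 times Bmp4 in the controls and at 15, 12.6, 8.78 and 9.23 times Bmp4 in KA 1 to KA 4. The order of these ligand genes thus turned over in every library. Bmp4 (ENSMUSG00000021835) lies on chromosome 14 from 46383520 to 46390669 and Bmp7 (ENSMUSG00000008999) on chromosome 2 from 172868012 to 172940321, both on the minus strand.

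Bmp3, a BMP family member that can oppose the others, had 244, 382 and 312 normalised reads in controls and 78.1, 85.6, 198 and 155 in KA (log2 fold change -1.27, SE 0.32; edgeR adjusted p = 0.00405). The KA males were lower than the KA females, but within KA sex cannot be told apart from the run of animal numbers. Among females alone the log2 fold change was -0.66 (adjusted p = 0.0607), and in the 4 animals numbered 4853 to 4857 it was -1.93. Bmp2 went from 328, 369 and 386 to 187, 249, 333 and 180, and KA 3 lay within the controls. Its log2 fold change of -0.61 (SE 0.22; edgeR adjusted p = 0.0205) no longer passed without control 2 (adjusted p = 0.0527) or without control 3 (adjusted p = 0.0638).

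The receptor, the antagonist and the target genes of BMP in the table were all lower. Bmpr2, the type II BMP receptor, had 2502, 2306 and 2266 normalised reads in controls and 1723, 1728, 2089.9 and 2032 in KA, the smallest difference among the 29 genes (log2 fold change -0.32, SE 0.12; edgeR adjusted p = 0.0232). It did not pass without control 1 (adjusted p = 0.075), without control 2 (0.0527) or without KA 2 (0.0723), and RLE factors moved its log2 fold change to -0.49. Grem1, a secreted antagonist that binds BMPs, had 409.9, 463 and 632 in controls and 136, 317, 170.2 and 232 in KA (log2 fold change -1.24, SE 0.27; edgeR adjusted p = 0.00212). The antagonist gene and the ligand gene Bmp4 were both low in every KA library.

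Id3 and Id4 encode dimerisation partners that block basic helix-loop-helix factors, and Id genes are standard BMP readouts. Id3 went from 1133, 1391 and 1488 normalised reads to 772, 888, 1029.8 and 713 (log2 fold change -0.65, SE 0.15; edgeR adjusted p = 0.00296). Id4 went from 1001, 911 and 1203 to 514, 624, 1083 and 427, with KA 3 inside the range of the controls (log2 fold change -0.65, SE 0.28; edgeR adjusted p = 0.0421). The call of Id4 was lost without control 1 (adjusted p = 0.0816), control 2 (0.0513), control 3 (0.136), KA 1 (0.0905), KA 2 (0.081) or KA 4 (0.0903). Without KA 3 its log2 fold change was -0.99. KA 3 also had the highest Krt15 of the KA libraries (70040 normalised reads against 18090 to 39308 in the others), and any link between these values was not tested. Bmp2k, a kinase named for its induction by BMP2 and not a part of the receptor pathway, was higher, with 415, 380.4 and 455 in controls and 623, 568, 780.2 and 575 in KA (log2 fold change 0.61, SE 0.15; edgeR adjusted p = 0.00367). In Bmp2k, 14% of exonic bases are shared with Paqr3 on the other strand, which was lower in KA (log2 fold change -0.84; edgeR adjusted p = 0.0187).

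The upstream sequences of 4 of these genes are shown, those of the ligand Bmp4, the antagonist Grem1, the target Id4 and the transducer Smad9, all lower in KA, while Bmp7 and Smad1 were higher. Each line gives the 250 bases before the RefSeq start, 5′ to 3′ on the gene's strand, on GRCm38.p6, the assembly of mm10. For Bmp4 and Smad9 the window ends where the gene begins in the authors' table, but there Grem1 begins at 113758646 and Id4 at 48261228, a little downstream of the RefSeq start. Capitals mark matches to GGCGCC, a core of the BMP-responsive Smad element, or to GTGGGAA, the core bound by the Notch factor Rbpj, searched on both strands. The windows are chr14:46390670-46390919 (minus strand) for Bmp4, chr2:113758649-113758898 (minus) for Grem1, chr13:48260866-48261115 (plus) for Id4 and chr3:54755332-54755581 (plus) for Smad9.
Bmp4: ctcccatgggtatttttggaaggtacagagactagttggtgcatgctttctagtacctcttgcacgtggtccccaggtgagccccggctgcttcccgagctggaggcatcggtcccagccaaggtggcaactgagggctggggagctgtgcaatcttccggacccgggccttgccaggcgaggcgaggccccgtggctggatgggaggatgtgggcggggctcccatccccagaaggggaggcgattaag
Grem1: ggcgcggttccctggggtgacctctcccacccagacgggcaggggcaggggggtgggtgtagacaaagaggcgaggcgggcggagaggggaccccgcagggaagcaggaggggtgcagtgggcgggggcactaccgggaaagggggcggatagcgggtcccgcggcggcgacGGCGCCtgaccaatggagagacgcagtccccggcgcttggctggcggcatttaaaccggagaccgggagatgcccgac
Id4: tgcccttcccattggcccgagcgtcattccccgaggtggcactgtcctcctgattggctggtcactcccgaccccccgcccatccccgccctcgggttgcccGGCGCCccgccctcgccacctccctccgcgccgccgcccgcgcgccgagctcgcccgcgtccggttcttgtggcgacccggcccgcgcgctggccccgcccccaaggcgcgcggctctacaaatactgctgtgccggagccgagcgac
Smad9: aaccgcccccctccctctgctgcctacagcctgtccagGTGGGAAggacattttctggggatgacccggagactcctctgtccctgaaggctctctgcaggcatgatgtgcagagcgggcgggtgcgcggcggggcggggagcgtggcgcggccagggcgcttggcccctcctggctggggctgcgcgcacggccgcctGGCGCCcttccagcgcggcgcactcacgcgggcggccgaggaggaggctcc

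The window of Bmp4 held no match to either motif. In Grem1 the last base of GGCGCC lies 73 bases before the RefSeq start and in Id4 it lies 143 bases before it, while Smad9 held 1 match to each motif. Promoter windows were found for 22 of the 30 genes, 29 windows in all with alternative starts. GGCGCC was in 10 of the 29 windows (9 genes) and in 9.59% of all 32851 windows of the same length. Overlapping windows of Ltbp4 hold the same match. The motif is made of G and C alone, and the share of G and C in all windows was not compared. Bmp2k, higher in KA, held 2 matches to GGCGCC, while Id3 and Smad1 held none. GTGGGAA was in 4 of the 29 (Bmpr2, Hes7, Smad5 and Smad9) and in 5.42% of all windows. The Gli motif GACCACCCA and the Smad palindrome GTCTAGAC were in 0 of the 29 and in 0.225% and 0.167% of all windows. The motifs do not overlap each other in letters. The shares of G and C were 63.2% in the window of Bmp4, 72.0% in Grem1, 75.6% in Id4 and 73.2% in Smad9. These matches are letters in a window and were not set against any measure of binding.

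Of 25 other BMP pathway genes the table held 6, and all 6 were lower in KA (median log2 fold change -0.84). Rgmb, a BMP co-receptor, went from 5819, 4772 and 4841 normalised reads to 1246, 1576, 2851 and 1384 (log2 fold change -1.54, SE 0.26; edgeR adjusted p = 0.000532). Tob1, an antiproliferative protein that binds BMP Smads, went from 2442, 2544 and 2768 to 1276, 1528, 1584 and 1312 (log2 fold change -0.86, SE 0.12; edgeR adjusted p = 0.000164). Crim1, a transmembrane BMP binder, had a log2 fold change of -0.76 (SE 0.19; edgeR adjusted p = 0.004). The other 3 were Nbl1 and Bambi, which oppose BMP or TGF-beta family signals, and Dlx3, a homeobox gene of differentiating epidermis, with log2 fold changes of -0.82, -1.33 and -0.81. The list thus held a co-receptor, inhibitors and a target, all on the same side.

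The 4 Smad genes were not alike. Smad1 rose from 1191, 1140.2 and 1311 normalised reads in controls to 1710.3, 1777, 1645 and 1903 in KA (log2 fold change 0.53, SE 0.11; edgeR adjusted p = 0.00168). Smad5, its close relative in BMP signalling, fell from 2218, 2407 and 2568 to 1662, 1811, 1824 and 1833 (log2 fold change -0.43, SE 0.11; edgeR adjusted p = 0.00411). Per kilobase, Smad1 stood at 0.561 to 0.636 times Smad5 in the controls and at 1.07 to 1.23 times Smad5 in KA, so their order turned over. Smad9, the third Smad of this type, was scarce, with 24, 25 and 37 counts in controls and 6, 9, 9 and 10 in KA (log2 fold change -1.53, SE 0.36). Smad3, which carries TGF-beta and activin signals, went from 380, 369 and 484 to 289, 296, 220.4 and 295 (log2 fold change -0.58, SE 0.17; edgeR adjusted p = 0.00808). In the 4 animals numbered 4853 to 4857 alone Smad3 had a log2 fold change of -0.36 and did not pass (adjusted p = 0.124).

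Among TGF-beta and activin ligand genes, Tgfb1 and Inhbb were higher and Tgfb3 lower. Tgfb1, the widespread form of TGF-beta, had 812, 800.0 and 819.6 normalised reads in controls and 1338, 1248, 1076 and 1250.0 in KA (log2 fold change 0.60, SE 0.12; edgeR adjusted p = 0.00117). Inhbb, the beta B subunit of activins and inhibins, had 578, 434 and 407 in controls and 859, 1022, 776 and 915 in KA (log2 fold change 0.92, SE 0.16; edgeR adjusted p = 0.000548). Tgfb3 had 147, 176 and 227 in controls and 93.0, 119, 94.0 and 105 in KA (log2 fold change -0.84, SE 0.21; edgeR adjusted p = 0.00415). In none of the 3 did the groups overlap, nor did they in 93.5% of all tested genes. Tgfb3 did not pass in the animals numbered 4853 to 4857 alone (adjusted p = 0.057). Gdf5, a BMP-like growth factor of joints, held 32, 6 and 17 counts in controls and 5, 6, 4 and 3 in KA, with overlapping groups, and 40.3% of its exonic bases are shared with an opposite gene.

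**Figure D3:**
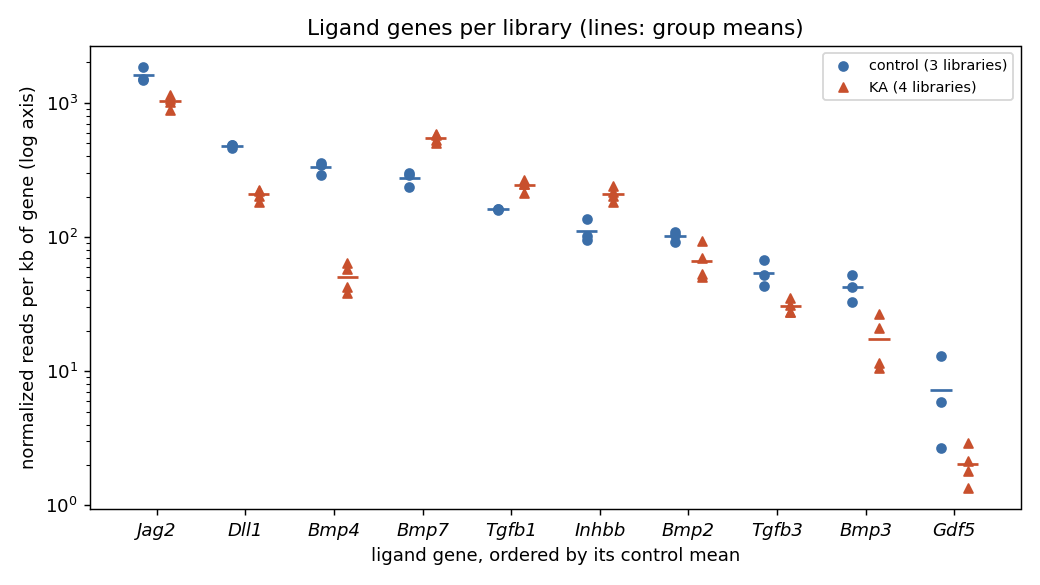
Normalised reads per kilobase of gene (log axis) for the 10 ligand genes, ordered by control mean, with circles for the 3 controls, triangles for the 4 KA libraries and lines for group means. Bmp4 drops from 331 to 50.4 per kilobase while Bmp7 goes from 274 to 550.

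Set per kilobase so that genes can be compared, the ligand genes in controls ran from Jag2 at 1610 ± 209 (SD, n = 3) through Dll1 at 478 ± 15.1, Bmp4 at 331 ± 35.3, Bmp7 at 274 ± 32.7, Tgfb1 at 161 ± 1.97, Inhbb at 111 ± 21.7, Bmp2 at 101 ± 8.43, Tgfb3 at 54.2 ± 11.99 and Bmp3 at 42.3 ± 9.34 to Gdf5 at 7.20 ± 5.32. The neighbours Bmp4 and Bmp7, Inhbb and Bmp2, and Tgfb3 and Bmp3 overlapped between libraries. In KA the order was Jag2 at 1026 ± 112 (SD, n = 4), Bmp7 at 550 ± 38.3, Tgfb1 at 244 ± 21.8, Inhbb at 209.8 ± 24.3, Dll1 at 208 ± 19.1, Bmp2 at 66.7 ± 20.02, Bmp4 at 50.4 ± 12.2, Tgfb3 at 30.4 ± 3.64, Bmp3 at 17.5 ± 7.78 and Gdf5 at 2.05 ± 0.66. Here Tgfb1, Inhbb and Dll1 overlapped as neighbours, as did Bmp2 and Bmp4. Tgfb1 was 2.42 to 3.71 times Tgfb3 in controls and 7.01 to 9.66 times Tgfb3 in KA.

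All 3 receptor genes of this branch were lower. Tgfbr3, betaglycan, a co-receptor that presents TGF-beta and binds inhibin, went from 1100.1, 1188 and 1324 normalised reads to 389, 459.7, 536 and 561 (log2 fold change -1.31, SE 0.15; edgeR adjusted p = 5.25e-05). Acvr1b, a type I activin receptor also called ALK4, went from 4036, 3606 and 3653 to 2155, 2285, 2387 and 2518 (log2 fold change -0.69, SE 0.11; edgeR adjusted p = 0.00034). Acvrl1, a type I receptor known as ALK1 and best studied in blood vessels, had 214 in each of the 3 controls and 52.4, 77.7, 81.5 and 132 in KA (log2 fold change -1.32, SE 0.27; edgeR adjusted p = 0.00141). The endothelial markers with a row, Pecam1 and Egfl7 (2 of 6), moved the other way: their sum was 11.4 to 28.9 in controls and 51.2 to 84.1 in KA, with Egfl7 at 0 in control 1. Acvrl1 (ENSMUSG00000000530, 101128522 to 101145336) and Acvr1b (ENSMUSG00000000532, 101174067 to 101213684) are neighbours on the plus strand of chromosome 15, 28.7 kb apart. Tgfbr3 (ENSMUSG00000029287) lies on chromosome 5 from 107106570 to 107289629 on the minus strand.

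The genes for latency proteins and for the activin binder were lower as well. Ltbp4 (ENSMUSG00000040488, chromosome 7, 27305136 to 27337692, minus strand) had 7532, 5542 and 6127 normalised reads in controls and 1897, 2466, 2780.3 and 2610.0 in KA (log2 fold change -1.39, SE 0.16; edgeR adjusted p = 5.04e-05). Ltbp1 had 345, 334 and 409 in controls and 101, 197, 173 and 159 in KA (log2 fold change -1.20, SE 0.22; edgeR adjusted p = 0.000721). Ltbp3 differed least of the 3, with 2172, 2031 and 2193 in controls and 1135, 1795, 1807 and 1364 in KA (log2 fold change -0.48, SE 0.16). Fstl3, a follistatin-like protein that binds activins, had 235, 189.7 and 172 in controls and 74.2, 76.6, 96.1 and 81.0 in KA (log2 fold change -1.28, SE 0.20; edgeR adjusted p = 0.000322). The groups did not overlap in any of the 4, nor did they in 93.5% of all tested genes. In Fstl3, 47.3% of exonic bases lie in Prss57 on the opposite strand, so reads of the pair cannot be told apart without strand.

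Tgfbi and Tgfb1i1, named for their induction by TGF-beta1, were both lower although Tgfb1 itself was higher. Tgfbi, a secreted matrix protein, went from 12865, 14506 and 15095 normalised reads to 6098, 7216, 6721 and 7969 (log2 fold change -1.02, SE 0.13; edgeR adjusted p = 0.000106). Tgfb1i1, which encodes the focal adhesion protein Hic-5, went from 134, 101 and 115 to 43.5, 39.4, 55.4 and 48.8 (log2 fold change -1.32, SE 0.23; edgeR adjusted p = 0.000599).

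Of 38 other TGF-beta and activin genes the table held 13, with 9 of them higher and 4 lower in KA (median log2 fold change 0.75). Fbn2, which encodes fibrillin-2, a microfibril protein to which latent complexes attach, had 6.63, 10.3 and 4.01 normalised reads in controls and 367, 282, 319 and 196 in KA (log2 fold change 5.39, SE 0.36; edgeR adjusted p = 2.87e-06). Lrrc32, encoding GARP, a cell surface anchor for latent TGF-beta, had 118, 48.5 and 59.3 in controls and 625, 512, 439 and 373 in KA (log2 fold change 2.69, SE 0.32; edgeR adjusted p = 7.27e-05). The integrin subunits Itgb6 and Itgb8, whose integrins release active TGF-beta, had log2 fold changes of 2.10 (SE 0.30) and 0.75 (SE 0.16). Furin, the protease that cleaves the TGF-beta precursor, had one of 0.60 (SE 0.13).

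Feedback genes of that list were also higher in KA. Skil, a repressor of Smad signalling that TGF-beta induces, had 528, 516 and 574 normalised reads in controls and 1270.1, 1112, 971 and 1008 in KA (log2 fold change 1.01, SE 0.13; edgeR adjusted p = 0.000116). Pmepa1, a further TGF-beta-induced inhibitor, had a log2 fold change of 1.57 (SE 0.26). The 4 lower genes were Lefty1, Vasn, Nedd4l and Cdkn1a, with log2 fold changes between -0.70 and -0.54. Lefty1 encodes a secreted antagonist of Nodal, and its log2 fold change had an SE of 0.23 (edgeR adjusted p = 0.0142). Vasn, encoding a TGF-beta binder, overlapped between the groups and did not pass without control 3 (adjusted p = 0.177), KA 1 (0.0505), KA 2 (0.0857) or KA 4 (0.0582). Genes named as targets of the same ligand thus stood on both sides, with Tgfbi and Cdkn1a lower and Pmepa1 and Skil higher.

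**Figure D4:**
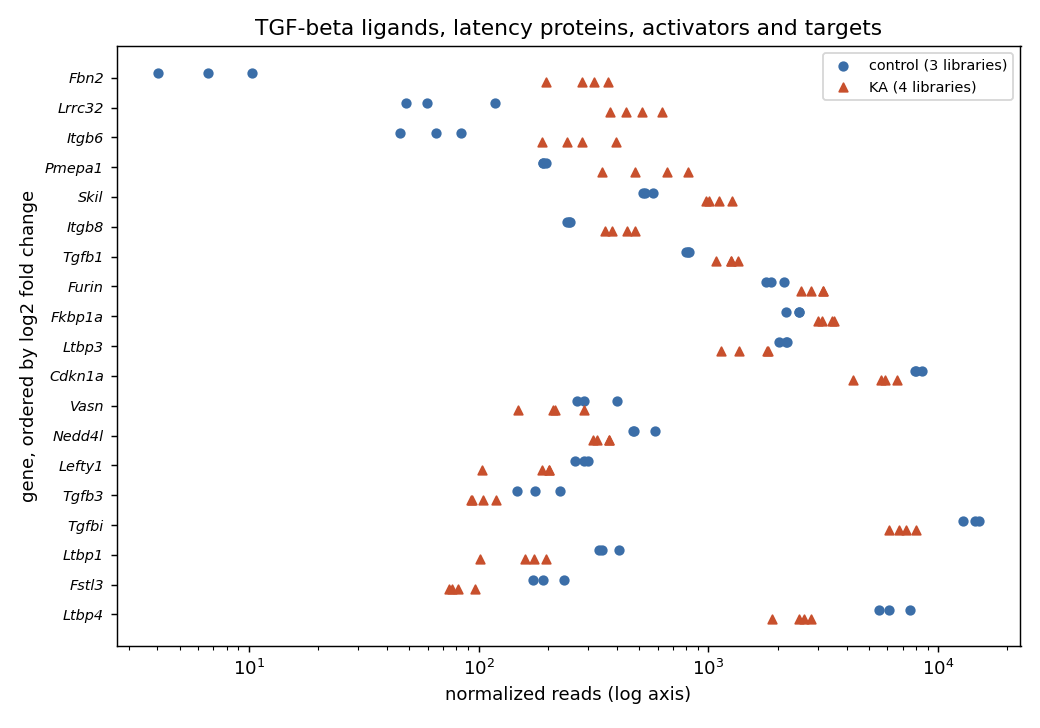
Normalised reads (log axis) of TGF-beta ligand, latency, anchoring, activation and target genes in the 3 controls (circles) and 4 KA libraries (triangles), ordered by log2 fold change. Fbn2, Lrrc32 and Itgb6 at the top are higher in every KA library than in every control, and Ltbp4, Fstl3 and Ltbp1 at the bottom are lower in every KA library.

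For Hedgehog the table held 8 of 24 other pathway genes, and in KA 3 were higher and 5 lower (median log2 fold change -0.52). The 3 ligand genes Shh, Ihh and Dhh have no row and are not analysed here. The co-receptors differed in direction: Gas1 went from 1683, 1468 and 1897 normalised reads to 5395, 4715, 4159 and 4452 (log2 fold change 1.48, SE 0.14; edgeR adjusted p = 2.02e-05), and Cdon from 781, 765 and 825 to 255, 327, 392 and 363 (log2 fold change -1.24, SE 0.16; edgeR adjusted p = 8.71e-05). Disp1, which releases Hedgehog ligands from the cells that make them, went from 227, 166 and 141 to 53.4, 80.0, 72.1 and 72.7 (log2 fold change -1.36, SE 0.24; edgeR adjusted p = 0.000556). Sufu, which restrains Gli factors, was higher with a log2 fold change of 0.71 (SE 0.14), and Evc, Evc2 and Iqce, of a complex at the base of the cilium, were lower with log2 fold changes of -0.56, -0.49 and -0.55. Csnk1a1, a kinase shared with other pathways, was higher (log2 fold change 0.51). Evc did not pass without control 1 (adjusted p = 0.0579).

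The spread between mice was modest for most of the 29 genes. The coefficient of variation had a median of 11.2% among controls and 14.7% among KA libraries, and in KA it ran from 4.54% in Smad5 to 58.0% in Hes7. The groups stood apart without overlap in 27 of the 29 genes, and over all tested genes the share was 93.5%, so the members were not unusual in this. KA 3 was the KA library nearest to the controls in 14 of the 29 genes (48.3%), and in 48.7% of all tested genes. KA 1 was the nearest in 1 of the 29 (3.45%), and in 5.99% of all tested genes.

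A dependence of the genotype difference on sex was asked for by fitting genotype, sex and a term for both, with 1 male control and 3 residual degrees of freedom. Of the 29 genes 0 passed for that term at an adjusted p below 0.05 (edgeR quasi-likelihood), where 0.0445% of all tested genes did, and DESeq2 also gave 0. At an unadjusted p-value under 0.05 there was 1 gene, Bmp3, or 3.45% of the 29 against 2.84% of all tested genes. Its fall was larger in males by 1.57 on the log2 scale (interaction -1.57; unadjusted p = 0.00299, edgeR adjusted p = 0.873). In the males, and likewise in the animals numbered 4875 to 4877, there was 1 control, and both KA libraries lay on the side of it that the whole data gave in 29 of 29 genes, which the choice of the genes largely sets.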

How the data were processed

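Epidermal RNA of 7 mice was sequenced, 4 KA and 3 control. The deposited table gives raw read counts per gene, and the authors' normalised reads, a signal in which counts are divided by 1 size factor per library. It also gives the authors' log2 fold change, a test score and the p-value with its adjusted form, per the file headers. The submitters' processing notes name fastp, STAR 2.6.1d, featureCounts 1.5.0-p3, DESeq2 1.40.2 and mm10, and the strand setting is not given in the sources used here. The largest adjusted p-value in the table is 0.04995, and the adjustment was recovered as one over 19407 genes, so the listed genes were selected on the same libraries.

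The counts were refitted with edgeR 4.0.16 (R 4.3.3, limma 3.58.1), using its robust quasi-likelihood test with library sizes from the authors' size factors. The low count filter left 6749 genes tested and 342 not tested, with 5 residual degrees of freedom and a common biological coefficient of variation of 0.193. P-values were adjusted by Benjamini-Hochberg over all tested genes at 0.05. The authors' factors were kept because factors estimated from a table of called genes assume that most listed genes are unchanged. Alternatives were TMM and RLE factors, other filters and thresholds, DESeq2 1.42.0, limma-voom, blocks, sex, and each library left out. The fit was checked on simulated counts. The titles also carry letters shared between the groups. Control 1 and KA 1 have A, and control 2 and KA 2 have B. Control 3, KA 3 and KA 4 have C. What the letters stand for is not given. Beyond these letters and the animal numbers, nothing in the labels says how mice were housed or libraries batched.

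The pathway genes and lists were chosen with earlier results of these data known. In each pathway and role the rule named up to 3 members of largest log2 fold change with a mean of at least 20 normalised reads, and from each other list up to 3 genes of smallest adjusted p-value and all its ligands. The remaining members, and the remaining genes named from the other lists, were added after their values were seen. Gene positions and symbols of all 30 matched GENCODE M21, and levels per kilobase use the authors' gene length. Columns of per-sample values left unused numbered 0.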

Additional observations from a re-analysis of the deposited data

Results flagged for a closer look

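Among the 4 KA libraries of each of the 30 genes, the gap between the most distant library and its nearest neighbour was set against the whole range, and compared with Dixon's critical value for 4 libraries. Of these 30 groups 2 passed it, where 1.5 are expected by chance. For Smad5 the ratio was 0.867, because KA 1 had 1662 normalised reads and the others lay between 1811 and 1833. For Smad3 it was 0.902, because KA 3 had 220.4 and the others lay between 289 and 296. In both genes the distant library lay further from the controls than the others did.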

How the results depend on the processing

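No tested member changed direction in any of the alternatives. TMM and RLE factors moved the median of all genes by -0.134 and -0.172 on the log2 scale and the share of called genes that were lower from 47.3% to 51.9% and 53.8%, while 29 of 29 members kept their direction and call. The other Notch genes called higher, 8 in the report, numbered 5 with TMM factors, 4 with RLE factors, 4 at an adjusted p under 0.01, 3 at a log2 fold change of at least 1 and 5 when adjusted over 19407 genes. The lower BMP members, 7 in the report, numbered 4 at an adjusted p under 0.01, 3 at a log2 fold change of at least 1, 4 when adjusted over 19407 genes and 3 in females alone, an alternative added after seeing the data. With each replicate left out in turn, the lower BMP members numbered 4 to 7 and the other Notch genes called higher 5 to 8. At a log2 fold change of at least 1, members called higher numbered 1 and lower 13. By pathway these were 1 higher for BMP, 2 lower for Notch, 0 higher and 1 lower for Smad, and 0 higher for TGF-beta and activin. Of the other lists, 2 BMP genes were lower, 1 Hedgehog gene higher and 2 lower, 1 Notch gene lower and 0 TGF-beta genes lower at that size. The lower genes of the other TGF-beta list numbered 2 at an adjusted p under 0.01 and 2 in females alone, where those of Hedgehog numbered 2 and of Notch 5. Of the same 29 members, 29 were called in the report, 25 at an adjusted p under 0.01, 26 when adjusted over 19407 genes, 28 with sex as a covariate, 26 to 29 with 1 library left out, 26 in animals 4853 to 4857 and 23 in females alone. Females alone lost Ltbp3 (adjusted p = 0.059) and Smad5 (0.0765) besides Bmp2, Bmp3, Bmpr2 and Id4. Sex as a covariate lost Id4 (0.0541), and adjustment over 19407 genes lost Bmp2 (0.0589), Bmpr2 (0.0666) and Id4 (0.121). The cause was not tested.

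Same-numbered control and KA libraries had correlations of deviations of -0.194, 0.133 and -0.0968, and not every library correlated best with its own number. Drawn from few libraries and from genes selected on them, these values cannot decide whether the numbers pair the samples. The title letters of control 1 to 3 and KA 1 to 3 match by number. With the letter as a block, 29 members were called, 24 of them lower, and 6581 of all genes. With the replicate number as a block, 29 members were called, 24 of them lower, and 6106 of all genes against 6746 without it. The interaction with sex could not be fitted with this block or without control 2, the male control, and gave 0 members in each alternative that was run. Few reads limit Hes7, Smad9 and Gdf5.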
